A study of Homo sapiens with 9 samples.

Results

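The response of MDA-MB-231 cells to 10 nM pladienolide B for 6 h was set against their response to 3.3 µM indisulam for 12 h, library by library, over every feature that the deposited table held at a measurable level. MDA-MB-231 is an established human triple-negative breast cancer line of mesenchymal character. The comparison used 6 of the 9 RNA-seq libraries of the study, 3 per drug. The other 3 came from DMSO controls, labelled 12 h, and entered the fit and are quoted as levels only. All cells were treated 24 h after seeding, per the labels' protocols, and came from this line with no genetic change stated. The drugs were given for different times and there was no DMSO group labelled 6 h, so drug and time cannot be told apart in any difference below. The labels number the libraries as replicas and do not say whether each had its own culture, so a p-value here covers no more than the spread among these libraries.

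Pladienolide B is a macrolide that binds SF3B1 within the SF3b complex of the U2 snRNP, the particle that recognises the branch site at the start of splicing. Indisulam is an aryl sulfonamide that brings the splicing factor RBM39 to the DCAF15 receptor of a cullin ubiquitin ligase, which leads to degradation of the RBM39 protein. Both therefore act on the splicing of pre-mRNA. Pladienolide B acts on a core step that nearly all introns share, and indisulam acts on a regulator related to U2AF2 that assists a part of them.

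Libraries made with an mRNA-Seq kit gave between 59312100 and 83910831 reads per library. The unit throughout is the normalised value, a read count divided by the size factor of its library. Of 46846 features, 16846 had a mean of at least 10 over the 9 libraries, and 14288 of these carried a gene symbol. A count of 3 reads, the limit that 0 reads allows, corresponded to values of 2.48 to 3.87, which cover counting error only. Mesenchymal markers were abundant in every library, with VIM (vimentin) at 177152 ± 15400.2 with pladienolide B and 117783 ± 4957 with indisulam (SD, n = 3). The luminal factors ESR1, PGR and FOXA1 had means under 5 in each group, but KRT8 and KRT18, keratins of luminal cells, were abundant. The 12 luminal markers summed to 92815.3 to 96784.4 with indisulam and 136392 to 148409 with pladienolide B. Of the other types, 3 of 10 leukocyte markers had no read in any library. The summed level of the 12 mesenchymal markers ranged from 502703 to 558470 with indisulam and from 720902 to 885973 with pladienolide B. The sum of 10 leukocyte markers, carried mostly by CD68, was 7617.55 to 8128.26 and 11830.5 to 15348.3, and that of 7 endothelial markers was 277 to 333 and 156 to 172. Their part in the results was not tested.

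The scale of the comparison depended on how libraries were made comparable. The normalised values summed to 84689800 ± 2607940 per library with pladienolide B and to 63349500 ± 409106 with indisulam (SD, n = 3), a ratio of 1.337. The exact two-sided permutation p was 0.1, and a test of 3 values against 3 cannot go lower. The DMSO total was 61016500 ± 574386. Main counts are therefore given as deposited and again after every library was scaled to the same total, which lowered the log2 fold change of all features together by 0.42. Reads on the mitochondrial chromosome took 13.8 ± 0.150% of the signal with pladienolide B and 9.93 ± 0.189% with indisulam, and the 100 highest features took 35.3% and 28.3%. Whether these shifts have a part in the differences of single genes was not tested.

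At a limma adjusted p under 0.05, 11839 of the 16846 features differed between the drugs (70.3%). Of all features, 5842 (34.7%) were higher and 5997 (35.6%) were lower with pladienolide B than with indisulam. With the same total per library 11509 differed (68.3%), 3013 higher (17.9%) and 8496 lower (50.4%). The higher features thus made up 49.35% of the called ones as deposited, 26.18% with the same total, 47.55% with TMM scaling and 53.74% under quantile normalisation. Differences of at least 2-fold numbered 1401 higher (8.32%) and 3107 lower (18.4%) as deposited, and 676 (4.01%) and 4884 (29%) with the same total. In 9010 features (53.5%) the call had the same direction under both scalings. All 3013 features higher with the same total were also higher as deposited, and all 5997 lower as deposited were also lower with the same total. A further 278 features (1.65%) were called in opposite directions by the 2 scalings. The 3 values of each drug did not overlap in 12102 features (71.8%) as deposited, with pladienolide B the lower in 6099 (36.2%), and in 11985 (71.1%) with the same total. The 10th percentile was −1.51 and the 90th 0.95 as deposited, and the median 0.01.

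**Figure D1:**
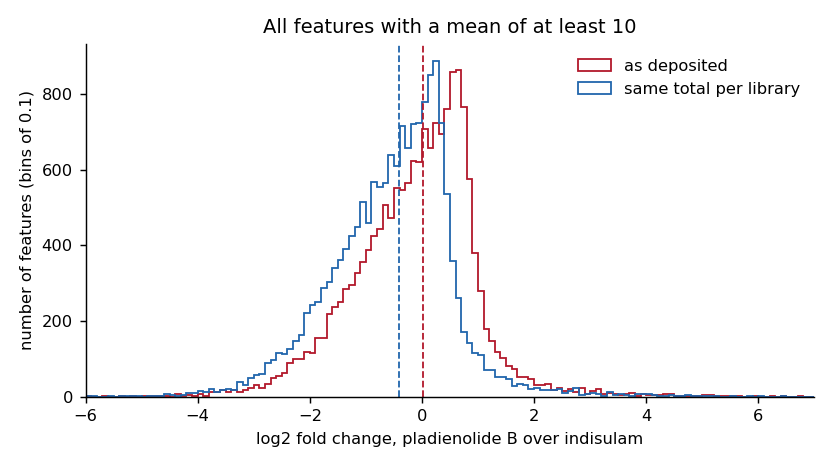
Histogram of the log2 fold change (horizontal axis, pladienolide B over indisulam, bins of 0.1) of 16846 features (vertical axis, number of features), as deposited and with the same total per library, with dashed lines at the medians. The medians are 0.01 and −0.40, and the peak of each histogram lies to the right of its median.

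The genes at the centre of the 2 drugs' action moved unequally. SF3B1, the target of pladienolide B (GSHG0026214, hg38 chromosome 2, 197389785 to 197435093), had values of 14948, 14866 and 15015 with indisulam and 19472, 17526 and 19502 with pladienolide B. The pladienolide B libraries were the higher and did not overlap the indisulam ones (log2 fold change 0.33 ± 0.06, with its SE after ±, as for every fold change below; limma adjusted p = 0.000135). The direction did not hold with the same total (−0.086, adjusted p = 0.248) or under quantile normalisation (−0.048). RBM39, the protein that indisulam removes (GSHG0027334, hg38 chromosome 20, 35701347 to 35742260), had values of 38719, 37309.8 and 36910.1 with indisulam and 19058, 17380.1 and 18439 with pladienolide B, against 15036 ± 392 in DMSO. Its transcript was 2.06 times as high with indisulam as with pladienolide B, and the groups did not overlap (−1.04 ± 0.05, adjusted p = 1.01e-09; same total −1.46). RBM23, a close relative of RBM39 that DCAF15 also takes up with indisulam, had values of 4903, 4806 and 4916 with indisulam and 1490.0, 1438 and 1535 with pladienolide B. Every pladienolide B value was far below the lowest indisulam value (−1.71 ± 0.06, adjusted p = 7.23e-11; same total −2.13). RBM23 overlaps DAD1, which has a higher mean, and their reads cannot be told apart here: the labels name a library type that keeps the strand, but the strand setting of the counting is not given in the sources used here.

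DCAF15, the receptor through which indisulam acts, had values of 3162, 3240.1 and 3134 with indisulam and 849.8, 972 and 992 with pladienolide B. The pladienolide B libraries lay lowest of all 9, since DMSO stood at 3109 ± 115 (−1.76 ± 0.07, adjusted p = 2.11e-10; same total −2.18). Other parts of that ligase differed the other way: RBX1, its RING subunit, was higher with pladienolide B by 0.62 and DDB1, its adaptor, by 0.59 on the log2 scale (limma adjusted p = 1.79e-06 and 1.81e-07; same total 0.20 and 0.17). Of 11 genes listed with RBM39 and the ligase, 4 were higher and 5 lower as deposited, and 2 and 8 with the same total. The shares of all features were 34.7% and 35.6%, and 17.9% and 50.4%.

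**Figure D2:**
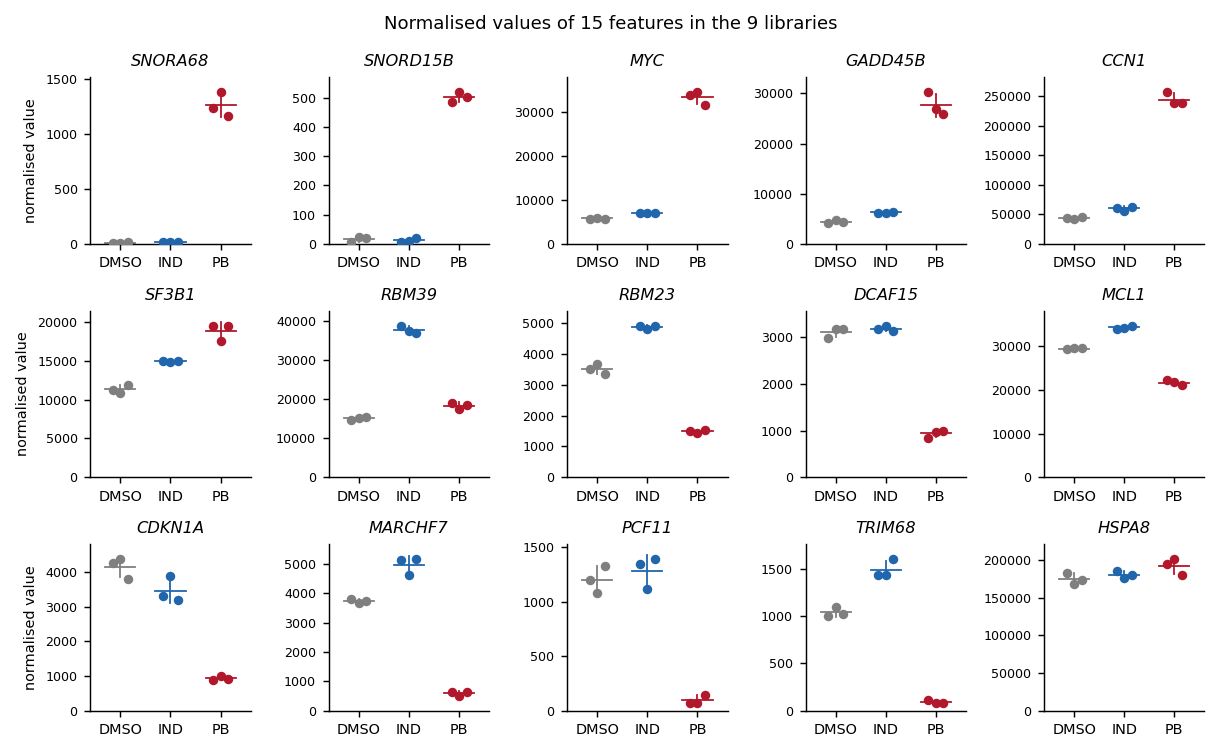
Normalised value (vertical axes, linear, from 0) of 15 features in each of 9 libraries, as points for DMSO, indisulam (IND) and pladienolide B (PB), with lines at the mean and 1 SD (n = 3). The top row and SF3B1 are higher with pladienolide B than with indisulam, while RBM39, RBM23, DCAF15, MCL1, CDKN1A, MARCHF7, PCF11 and TRIM68 are lower, and HSPA8 values of the 2 drugs overlap.

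Small nucleolar RNAs, or snoRNAs, were often higher with pladienolide B, and 33 of the 154 features at least 8-fold higher were snoRNAs (21.4%, against 0.689% of all features tested). They guide the chemical modification of ribosomal and spliceosomal RNA, and in human cells most are cut out of the introns of other genes after splicing. Members of the C/D box class guide methylation and those of the H/ACA class guide pseudouridylation. Mature snoRNAs carry no poly(A) tail as a rule. Of the 52 features at least 8-fold higher among those with a mean of at least 10 in DMSO, 7 were snoRNAs (13.5%). Their class is visible in the sequence. SNORA3A is shown as an H/ACA example from its GENCODE v29 transcript (GRCh38), the capitals marking the ACA at 3 bases from the 3′ end.
SNORA3A: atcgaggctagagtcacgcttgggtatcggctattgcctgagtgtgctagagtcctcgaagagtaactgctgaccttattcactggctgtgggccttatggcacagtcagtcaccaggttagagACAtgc
It lies at chr11:8684227-8684356 on the plus strand of hg38, within RPL27A, which codes for a ribosomal protein. C/D box RNAs were searched for TGATGA within the first 30 bases and CTGA within the last 15. TGATGA stood in its window in 71.6% of 275 C/D box RNAs of GENCODE and in 0.704% of 142 H/ACA RNAs, CTGA in 92.4% and 2.82%, and ACA at 3 bases from the end in 1.45% and 75.4%. Only the sense strand was searched.

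SNORA68 had values of 13.7, 16.2 and 15.7 with indisulam and 1231, 1379 and 1166 with pladienolide B, and SNORD15B had 4.58, 9.12 and 20.9 with indisulam and 488, 519.8 and 502 with pladienolide B. In both the 3 pladienolide B libraries stood far above all 6 others, with DMSO at 8.17 ± 2.75 and 16.4 ± 9.39. The log2 fold changes were 6.28 ± 0.26 and 5.55 ± 0.51 (limma adjusted p = 1.83e-10 and 3.15e-07), and 5.87 and 5.15 with the same total. SNORD38B had values of 22.9, 9.12 and 12.5 with indisulam and 305, 386 and 298 with pladienolide B. The 3 pladienolide B values stood above all 6 others (4.47 ± 0.37, adjusted p = 1.4e-07; same total 4.06). SNORA3A had values of 30.2, 40.6 and 24 with indisulam and 499, 405 and 486 with pladienolide B. Every pladienolide B library was above all indisulam and DMSO libraries (3.86 ± 0.27, adjusted p = 2.13e-08; same total 3.44). SNORD16, in RPL4, was higher by 4.52, SNORA23, in IPO7, by 3.19, SNORD35B by 3.08, and SNORD88B, in a feature without a symbol, by 2.80 on the log2 scale. Each of these snoRNAs had DMSO and indisulam means under 100. They met the naming minimum of 100 only through pladienolide B.

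Of 247 snoRNA features with any read, 116 had a mean of at least 10, and 90 of these were higher and 2 lower with pladienolide B (limma adjusted p under 0.05). Their median log2 fold change was 2.10, against 0.01 over all features, and 1.70 with the same total, where 78 were higher and 8 lower. A feature near 0 in the other groups could pass that minimum through the pladienolide B libraries alone. Of the 62 snoRNAs with a mean of at least 10 in DMSO, 41 were higher (66.1%) and 2 lower, against 34.2% higher of all 16277 features chosen the same way. Their median was 1.50, and 1.10 with the same total (33 higher, 8 lower). SNORD105B had no read in any indisulam library and was at least 11.5-fold higher with pladienolide B, taking 3 reads per library as the floor. With that bound in place of its fitted value the median over the 116 was also 2.10. The 2 lower ones were SNORD87 (−1.61), in SNHG6, and SNORA92 (−1.59), in TMEM184B, named after their values were seen.

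The genes that hold the snoRNAs differed less than most of the snoRNAs themselves. Of the 116, 108 lay within a feature of higher mean, and 99 of these had a larger fold change than that host. The median excess over the host was 2.13 on the log2 scale for all 108. Of the 55 with a mean of at least 10 in DMSO, 48 exceeded their host, and the median excess over all 55 was 1.16. Over the 75 hosts the median was 0.44 as deposited and 0.02 with the same total. The 28 snoRNAs in ribosomal protein genes had a median of 2.84, with 26 higher and none lower, beside a median of 0.78 for their hosts. Limited to a DMSO mean of at least 10, 11 of 12 were higher with a median of 2.55. The 17 snoRNAs in GAS5, ZFAS1 and SNHG genes, whose spliced RNAs code for no protein, had a median of 0.85, with 9 higher and 1 lower, and 5 and 4 with the same total. Of the 15 with a mean of at least 10 in DMSO, 7 were higher and 1 lower, and 3 and 4 with the same total. By class and with that minimum, 20 of 29 C/D box, 17 of 24 H/ACA box and 4 of 9 Cajal body RNAs were higher, and 14, 16 and 3 with the same total. RPS3, which holds SNORD15B, was higher by 0.76, and GNL3, which holds 4 snoRNAs with fold changes of 1.65 to 2.35, was lower (−0.997). Only 1 of these 4, the one at 1.65, had a mean of at least 10 in DMSO. These groups were formed after the values were seen and the differences between them were not tested.

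**Figure D3:**
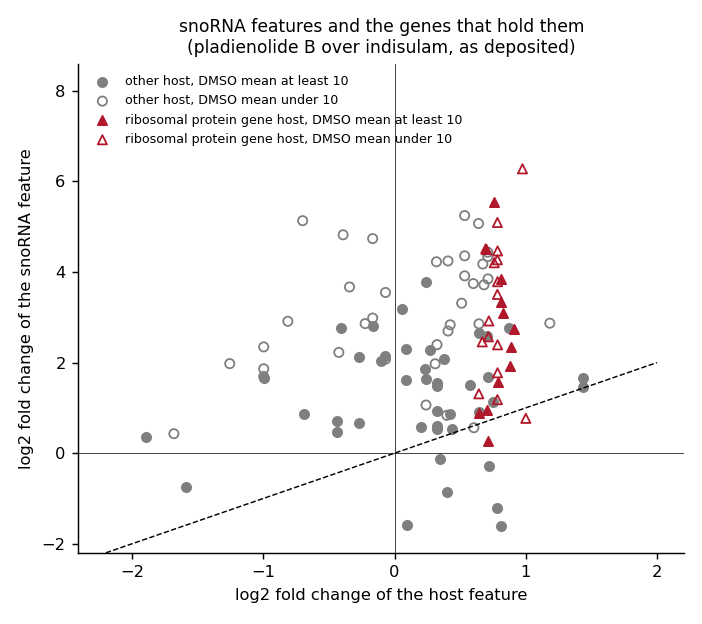
Log2 fold change (pladienolide B over indisulam, as deposited) of each snoRNA feature (vertical axis) against that of the feature it lies in (horizontal axis), for 108 snoRNAs, with triangles for hosts that are ribosomal protein genes, open symbols for a DMSO mean under 10, and a dashed line where both are equal. Of the 108 points, 99 lie above the line, and SNORA68 is the highest at 6.28.

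Other RNA from within introns shared the top of the ranking. Of 154 features at least 8-fold higher with pladienolide B, 114 (74.0%) lay inside a protein-coding gene of GENCODE without touching an exon of any such gene, and were not coding genes themselves. They included snoRNAs. Such features made up 6.9% of all tested. With a minimum of 10 in DMSO, the count was 39 of 52 (75.0%). Of the 896 intronic features with that minimum, 33.04% were higher and 27.68% lower, against 34.2% and 36.7% of all features chosen the same way. With the same total the shares were 24.1% and 37.4%, against 17.2% and 52.0%. Among named ones, FBXW4P1, a processed pseudogene inside BCR, had values of 67.8, 68.9 and 98.2 with indisulam and 1679.6, 1719 and 1494 with pladienolide B. The groups stood far apart (4.38 ± 0.35, adjusted p = 8.61e-08; same total 3.97), while BCR itself had a log2 fold change of 0.03. TNRC18P1, a processed pseudogene inside TBC1D9, was higher by 4.06, and GNRHR2, a unitary pseudogene that overlaps RBM8A, by 2.93. The mean of TNRC18P1 was 2.56 in DMSO, under the minimum of 10, and 17.5 with indisulam. It could be named only through its pladienolide B mean of 292. FBXW4P1, GNRHR2 and LINC00628 also had DMSO and indisulam means under 100. They met the naming minimum of 100 only through pladienolide B. LINC00628, a non-coding RNA, lies inside PLEKHA6, which had a log2 fold change of −2.23, and overlaps no feature of higher mean. It had values of 48.5, 27.4 and 39.7 with indisulam and 642, 865 and 718 with pladienolide B. All 6 other libraries lay below those of pladienolide B (4.26 ± 0.25, adjusted p = 4.19e-09; same total 3.84). At the other end, 167 features were at least 8-fold lower, of which 30 were intronic by the same rule. That share was also above the 6.9% of all tested, though far below the 74.0% at the higher end. Of the 167, 76 were coding genes (45.5%, against 74.2% of all tested) and none was a snoRNA.

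Gene structure went with the direction of the difference. Among protein-coding features, 59.3% of the 263 with 1 exon were higher with pladienolide B and 14.4% lower, with a median of 0.57. In genes of 21 or more exons 29.1% were higher and 44.6% lower, with a median of −0.17. With the same total the medians were 0.16 and −0.58, with 39.5% higher and 26.2% lower at 1 exon and 11.9% and 62.3% at 21 or more. Transcripts under 1 kb were higher in 73.7% and lower in 6.78%, and those of 8 kb or more in 21.6% and 49.6% (medians 0.67 and −0.31). These shares were 47.3% and 14.2%, and 8.03% and 68.4%, with the same total. Genes that span under 5 kb were higher in 56.3% and those of 100 kb or more in 24.7%, and in 34.0% and 9.42% with the same total. Abundance moved with the difference too, since 67.3% of features with a mean of 5000 or more were higher. At a DMSO mean of 1000 to 5000, a range chosen after the data were seen, the shares were 81.5% of 81 genes with 1 exon and 26.3% of 665 genes with 21 or more. Within spans of 15 to 60 kb the medians as deposited were −0.08, −0.07 and −0.02 at 2 to 6, 7 to 14 and 15 or more exons. They were 0.28, 0.24 and 0.10 under 15 kb, where 1 exon had 0.57. At 60 kb or more they were −0.13, −0.31 and −0.29. Exon number, length, span and abundance go together among genes, and which of them carries the relation was not tested.

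**Figure D4:**
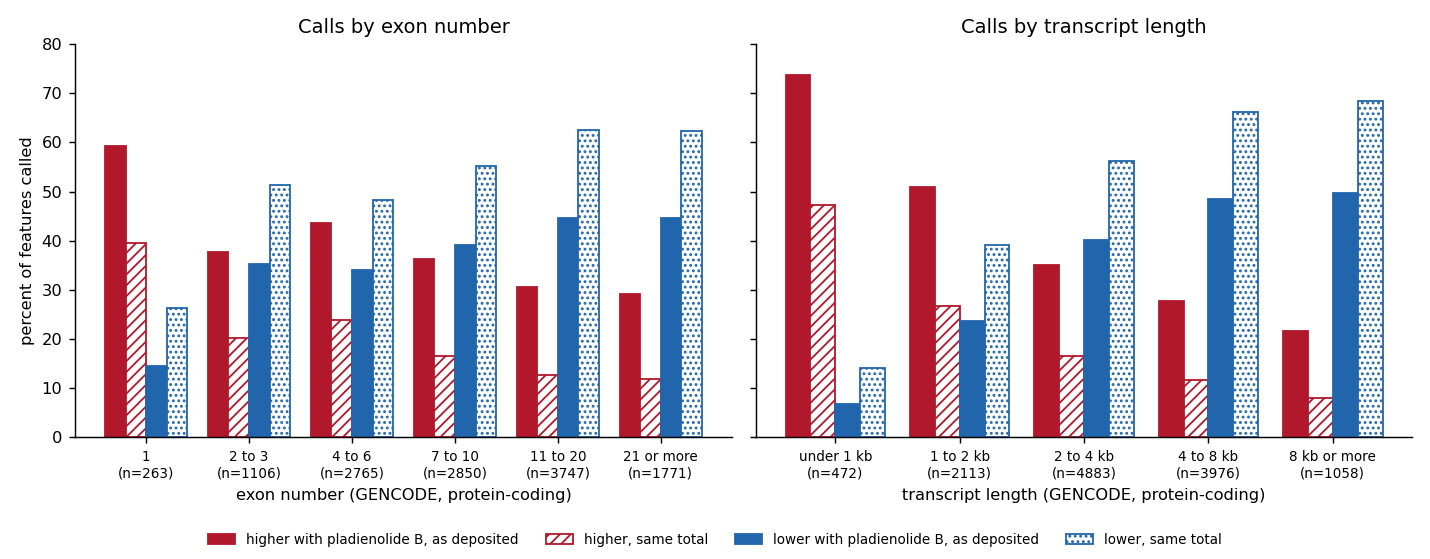
Percent of protein-coding features called higher or lower with pladienolide B (vertical axis) by the largest number of exons in a coding transcript (left) and by the length of the longest one (right), filled bars as deposited and patterned bars with the same total per library. The share called higher goes from 59.3% at 1 exon to 29.1% at 21 or more exons, and from 73.7% under 1 kb to 21.6% at 8 kb or more.

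The splicing machinery itself split by component. Over all features tested, 34.7% were higher and 35.6% lower as deposited, and 17.9% and 50.4% with the same total. Every list count here and below is to be read beside these shares. Of 10 SF3b and SF3a subunits, 8 were higher and 1 lower with pladienolide B as deposited (median 0.38), but 3 and 3 with the same total (median −0.04) and 5 and 3 under quantile normalisation. SF3B5 and SF3B3, both SF3b subunits, were the highest at 0.87 ± 0.07 and 0.84 ± 0.05 (limma adjusted p = 5.13e-08 and 6.18e-09) and were also higher with the same total (0.45 and 0.42). SF3A2, a subunit of SF3a, went the other way with values of 7423, 7303 and 7704 with indisulam and 2911, 3182 and 3604 with pladienolide B. Its groups did not overlap (−1.21 ± 0.08, adjusted p = 7.67e-09; same total −1.63). Among 19 partners in branch site and 3′ splice site recognition, 7 were higher and 10 lower (median −0.23), and 1 and 13 with the same total. DDX42, a helicase that binds SF3b, had values of 6709, 6749.9 and 7126 with indisulam and 1439, 1437 and 1782 with pladienolide B, and no pladienolide B value came near an indisulam one (−2.15 ± 0.08, adjusted p = 8.19e-11; same total −2.57). ZRSR2, which recognises the 3′ splice site of minor introns, was lower (−1.75), and it overlaps AP1S2 of higher mean. SNRPA1, a U2 snRNP protein, was higher by 0.91 (same total 0.49), and SNRPB2 by 0.55 (same total 0.13, adjusted p = 0.0817).

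All 7 genes of the Sm ring, the protein core of the spliceosomal snRNPs, were higher with pladienolide B under both scalings (median 0.67, same total 0.25). Over all 23 snRNP genes 18 were higher and 5 lower (11 and 7 with the same total), with SNRPG at 0.70 and EFTUD2, the U5 GTPase, at 0.73. LUC7L, a U1 snRNP protein, was lower (−1.30 ± 0.07, adjusted p = 3.28e-09), as was the tri-snRNP protein PRPF6 (−0.63). The hnRNPs, which coat nascent RNA, were higher in 16 and lower in 2 of 21 as deposited. That count was 6 and 7 with the same total, and 4 and 8 under quantile normalisation. HNRNPA1, a repressor of exon inclusion, had values of 32674, 34750.0 and 33224 with indisulam and 82583, 87095 and 82544 with pladienolide B. No indisulam or DMSO value reached the lowest pladienolide B value (1.33 ± 0.05, adjusted p = 8.84e-11; same total 0.91). HNRNPA0, a related protein, was higher by 1.14, and PTBP3 and HNRNPLL were lower (−1.06 and −0.47).

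SR proteins promote exon inclusion, and the CLK and SRPK kinases phosphorylate them. Of 11 SR proteins proper, 7 were higher and 2 lower as deposited, and 4 and 5 with the same total. SRSF2 had values of 21952, 24991 and 24498 with indisulam and 56511, 69390.1 and 62938 with pladienolide B. The pladienolide B libraries were the 3 highest of the 9 (1.40 ± 0.08, adjusted p = 4.56e-09; same total 0.98). RSRC2, an SR-related protein, was higher by 1.87, while RSRP1 and PNN, 2 further SR-related proteins, were lower (−1.07 and −1.03). The level of RSRP1 was 2935 ± 213 with indisulam, 1398 ± 83.1 with pladienolide B and 652 ± 69.3 in DMSO. The kinases went lower: all 4 CLK genes were lower under both scalings (median −0.95; 3 of 4 under quantile normalisation), as were 8 of the 12 kinases listed (10 with the same total). CLK2 had values of 1359, 1563 and 1325 with indisulam and 390.3, 502 and 572 with pladienolide B, with every pladienolide B value below (−1.55 ± 0.14, adjusted p = 2.54e-07), and it overlaps SLC50A1 of higher mean. SRPK2 was lower too (−1.48 ± 0.07). DYRK1A was the exception with the largest size at 1.24, and PRPF4B was higher as deposited (0.48) but not with the same total (0.059, adjusted p = 0.597).

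Nonsense-mediated decay removes transcripts with premature stop codons, which spliced RNAs with retained introns often carry. Of 10 decay factors, 8 were lower and 1 higher with pladienolide B (median −0.68), and 9 and 0 with the same total. SMG9, a regulator of the SMG1 kinase, had values of 2215, 2352 and 2438 with indisulam and 515, 516 and 652 with pladienolide B, and UPF2, which links UPF1 to the exon junction complex, had 1052, 919.5 and 898 with indisulam and 316, 197 and 308 with pladienolide B. Both were lower in every pladienolide B library (−2.06 ± 0.09 and −1.83 ± 0.16, limma adjusted p = 4.21e-10 and 2.85e-07; same total −2.48 and −2.25). SMG8 was higher as deposited (0.53) but did not pass with the same total (0.11, adjusted p = 0.276), and EIF4A3, of the exon junction core, turned from 0.24 to −0.17 (adjusted p = 0.00621 and 0.0313). The transcripts known as decay targets went both ways, with 11 of 20 higher and 6 lower, and 8 and 8 with the same total. GADD45B, a stress-induced decay target, had values of 6181, 6219.7 and 6389.8 with indisulam and 30229, 26869.8 and 25873 with pladienolide B. The 3 pladienolide B values stood above all 6 others (2.14 ± 0.07, adjusted p = 3.21e-11; same total 1.72). SNHG15, a snoRNA host, was higher by 1.64, and SNHG12, another host, and NAT9, a coding target, were lower (−1.59 and −1.75). SNHG12 overlaps TRNAU1AP, which has a higher mean.

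Ribosomal protein genes, whose transcripts are short and abundant, were higher throughout. All 45 large subunit and all 31 small subunit genes were higher with pladienolide B under both scalings (medians 0.81 and 0.80, same total 0.39 and 0.38), and 33 and 27 under quantile normalisation. Their fold changes lay between 0.64 and 1.10. RPL3 had values of 41808, 41072 and 38482 with indisulam and 85047, 90216 and 79899 with pladienolide B, and RPL41 had 22374, 19708 and 18890.3 with indisulam and 43187, 45573 and 42014 with pladienolide B. No values overlapped (1.07 ± 0.06 and 1.10 ± 0.07, limma adjusted p = 2.56e-09 and 1.01e-08; same total 0.65 and 0.69). RPS28 was higher by 1.01 and RPS27 by 0.98, the latter overlapping SLC39A1 of higher mean. The elongation factors and related genes were also higher, with 7 of 7 higher under both scalings (1 under quantile normalisation), EEF1D at 0.89. Initiation factors were mixed: EIF4G1, the scaffold of cap binding, was higher by 0.82 (0.11 under quantile normalisation, adjusted p = 0.091), while EIF5, the GTPase activator of start codon choice, had values of 13061, 14173 and 15794 with indisulam and 5375, 5808 and 6874 with pladienolide B and was lower (−1.26 ± 0.10, adjusted p = 5.16e-08). Of 2520 features of any kind with a mean of 5000 or more, 1695 were higher as deposited and 1008 with the same total, and the part of abundance and transcript length in these counts was not tested. Over the 34 translation factors 28 were higher and 2 lower as deposited, 17 and 9 with the same total, and 10 and 9 under quantile normalisation.

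Nuclear genes of oxidative phosphorylation followed, with 69 of 72 higher and 1 lower as deposited (median 0.69) and 59 and 4 with the same total (median 0.27). They included all 10 genes of complex IV and all 15 of complex V under both scalings. NDUFB8, of complex I, was the highest (1.07 ± 0.07, adjusted p = 6.55e-09; same total 0.65), ATP5F1D, of the ATP synthase, followed at 0.93, and NDUFV3 was the only lower one (−0.54). All 15 features of the mitochondrial chromosome were higher as deposited and 9 with the same total. Mitochondrial ribosomal proteins depended on scaling, with 49 of 73 higher and 12 lower as deposited and 16 and 29 with the same total. MRPL36 was the highest at 0.96, and MRPS31 and MRPS26 were lower (−1.38 and −1.13). Proteasome subunits were higher in 27 and lower in 1 of 30 as deposited, 14 and 6 with the same total, and 15 and 5 under quantile normalisation. PSMD2, of the cap, was higher by 0.93, and PSMC6, an ATPase of the cap base, was lower (−0.56). PSMC1 (1.39) overlaps NRDE2 of higher mean.

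**Figure D5:**
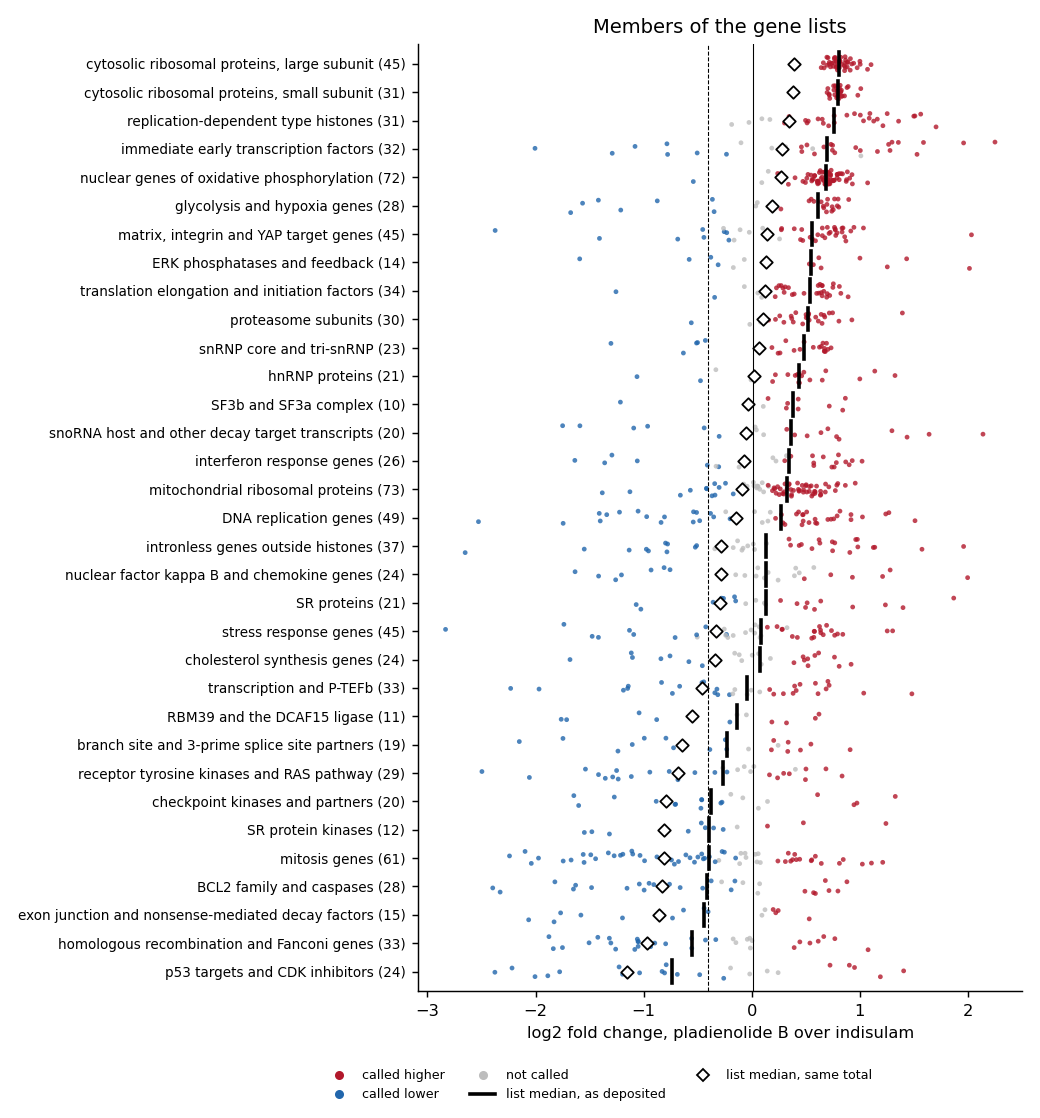
Log2 fold change (pladienolide B over indisulam, as deposited) of each tested member of 33 gene lists (rows, number tested in brackets), coloured by call, with a bar at the list median as deposited and a diamond at its median with the same total; vertical lines mark the medians of all features, 0.01 (solid) and −0.40 (dashed). Ribosomal proteins and histones are at the top with medians of 0.76 to 0.81, and p53 targets and CDK inhibitors at the bottom at −0.74.

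Immediate early genes are switched on within minutes of a signal and make unstable transcripts. Of 32 such transcription factors, 20 were higher and 7 lower with pladienolide B, and 13 and 8 with the same total (medians 0.70 and 0.28). MYC, a transcription factor that promotes growth (GSHG0042006, hg38 chromosome 8, 127735434 to 127742951), had values of 6969.6, 6910.1 and 7048 with indisulam and 33704, 34385 and 31557 with pladienolide B, against 5729.8 ± 167 in DMSO. It had the largest fold change in favour of pladienolide B of all called features with a symbol and a mean of at least 2000 whose values did not overlap (2.25 ± 0.05, adjusted p = 1.06e-11; same total 1.83). CEBPD, an intronless inflammatory factor, had values of 906, 943 and 930.0 with indisulam and 3348, 4478 and 3128 with pladienolide B. Every pladienolide B library was above all indisulam and DMSO libraries (1.96 ± 0.11, adjusted p = 4.19e-09; same total 1.54). SRF, the factor that drives many of these genes through serum response elements, had values of 7044, 6984 and 7498 with indisulam and 2647, 3062 and 3108 with pladienolide B. The 3 pladienolide B values stood below all 6 others (−1.29 ± 0.07, adjusted p = 1.83e-09; same total −1.71). BTG2, an antiproliferative early gene, was lower too (−2.00). Of the 14 ERK phosphatases and feedback genes 8 were higher and 4 lower (6 and 6 with the same total). SPRY2, an inhibitor of receptor signalling, had values of 5389, 6332 and 6093 with indisulam and 24004, 26350.0 and 21676 with pladienolide B. All 6 other libraries lay below those of pladienolide B (2.01 ± 0.08, adjusted p = 1.04e-10; same total 1.60). DUSP6, the ERK phosphatase, was higher by 1.43. SPRED3 and DUSP8 were lower (−1.59 and −0.58).

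Of 11 NF-kB subunits and inhibitors 6 were lower and 3 higher with pladienolide B, and of 13 cytokines and chemokines 1 was lower and 3 higher (6 and 2, and 3 and 2, with the same total). RELA, the main activating subunit, had values of 8750.2, 9067 and 9121 with indisulam and 2575, 2907 and 3229 with pladienolide B, and NFKB1, its partner, was lower as well (−1.63 ± 0.07 and −1.42 ± 0.10, limma adjusted p = 4.57e-10 and 2.26e-08; same total −2.05 and −1.83). IL6, a cytokine target, had values of 309, 419.7 and 498 with indisulam and 1833, 1416 and 1592 with pladienolide B, and TNFAIP3, the inhibitor A20, was higher by 1.28. No IL6 value of a drug overlapped the other's (2.00 ± 0.17, adjusted p = 1.53e-07; same total 1.58). Over all 24 genes 6 were higher and 7 lower, and 4 and 9 with the same total, and 10 were higher under quantile normalisation. Neither count as deposited exceeded the share of all features, 34.7% higher and 35.6% lower.

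Caspase genes, which carry out cell death, were mostly lower with pladienolide B. Among 14 caspases and their inhibitors and adaptors none was higher and 12 were lower (median −0.93; 13 lower with the same total, 10 under quantile normalisation). Over all 28 genes of the BCL2 family and caspases 7 were higher and 17 lower, and 6 and 20 with the same total. MCL1, the short-lived survival protein of the BCL2 family, had values of 34043, 34204 and 34667 with indisulam and 22183, 21707 and 21156 with pladienolide B. Every pladienolide B value was lower (−0.66 ± 0.05, adjusted p = 2e-08; same total −1.08). BCL2L1, which codes for the survival protein BCL-XL, differed the other way with values of 18543, 17026 and 17246 with indisulam and 32650.2, 33225 and 26356 with pladienolide B. No indisulam or DMSO value reached the lowest pladienolide B value (0.80 ± 0.08, adjusted p = 8.65e-07; same total 0.38). BCL2, another survival gene, at a low level, was higher by 0.88. BAK1, a pore-forming effector of mitochondrial death, had values of 2230.4, 2247 and 2332 with indisulam and 435, 481 and 439 with pladienolide B. Every pladienolide B library was below all indisulam and DMSO libraries (−2.33 ± 0.08, adjusted p = 3.58e-11; same total −2.75). BIK, an activator of that step, was lower (−2.40). Of all 10 proapoptotic genes of the family listed, 5 were higher and 3 lower, and 4 and 5 with the same total.

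Of 24 p53 targets and CDK inhibitors 15 were lower and 5 higher (median −0.74), the lowest median of the 33 lists, and 18 and 5 with the same total. MDA-MB-231 is known to carry mutant p53. CDKN1A, the CDK inhibitor p21, had values of 3317, 3874 and 3191 with indisulam and 895, 990.5 and 913 with pladienolide B. Its pladienolide B libraries stood below all 6 others, DMSO lying at 4147 ± 295 (−1.89 ± 0.09, adjusted p = 4.43e-10; same total −2.30). XPC, a DNA damage sensor, was lower (−2.38) and overlaps SLC6A6 of higher mean, and SESN1, a sestrin, was lower (−2.22). CDKN1B, the CDK inhibitor p27, differed the other way with values of 3128, 3465 and 3209 with indisulam and 9418, 8753 and 7846 with pladienolide B. The pladienolide B libraries were the 3 highest of the 9 (1.41 ± 0.08, adjusted p = 2.23e-09; same total 0.99). ZMAT3 was higher too (1.19).

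Cell cycle genes differed by process. Replication genes went both ways, with 26 of 49 higher and 17 lower (13 and 24 with the same total). POLA1, the catalytic subunit of the priming polymerase, had values of 3308, 3702 and 3375 with indisulam and 9949, 9692 and 9920.3 with pladienolide B. The 3 pladienolide B values stood above all 6 others (1.51 ± 0.06, adjusted p = 1.29e-10; same total 1.09). ORC6, of the origin recognition complex, had values of 1715, 1965 and 1954 with indisulam and 314, 364 and 298 with pladienolide B and was the lowest (−2.53 ± 0.10, adjusted p = 1.16e-10; same total −2.95), followed by MCM10 (−1.74). In neither case did the drugs overlap. POLE2 (1.27) overlaps RPS29, whose mean is higher. Recombination genes were lower in 15 and higher in 3 of 21 (median −0.93), and in 18 and 0 with the same total. BRCA2, which loads the recombinase onto DNA, had values of 3185, 2984 and 3074 with indisulam and 967, 571 and 1159 with pladienolide B. The pladienolide B libraries were the 3 lowest of the 9 (−1.84 ± 0.19, adjusted p = 1.26e-06; same total −2.25). RAD54L, a DNA motor of recombination, was lower (−1.88) and overlaps LRRC41. Of 12 Fanconi genes 4 were higher and 5 lower, and 2 and 8 with the same total. As deposited this was not far from the 34.7% and 35.6% of all features. The highest was FANCI at 1.08, and FANCD2, its partner, was higher by 0.77. FANCI overlaps POLG of higher mean.

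Of 61 mitosis genes 35 were lower and 17 higher (median −0.39), and 42 and 5 with the same total; quantile normalisation left 10 higher. Mitotic kinases and cyclins were lower in 13 of 17, and in 14 with the same total. CDCA8, of the chromosomal passenger complex, had values of 7907, 7454 and 7568 with indisulam and 1699, 1429 and 1738 with pladienolide B, and NDC80, the microtubule anchor of the kinetochore, had 8105, 7592 and 7264 with indisulam and 1974, 1435 and 2013 with pladienolide B. The pladienolide B values of both were far below those of indisulam (−2.24 ± 0.07 and −2.10 ± 0.11, limma adjusted p = 3.58e-11 and 1.08e-09; same total −2.66 and −2.52). MIS12, a kinetochore gene, and CENPU, a centromere gene, were higher (1.21 and 1.11). Checkpoint genes were lower in 12 and higher in 4 of 20, and in 16 and 4 with the same total. CDC25B, the phosphatase that activates CDK1, had values of 8809, 8477 and 8243 with indisulam and 2835, 2583 and 2741 with pladienolide B. No indisulam or DMSO value was as low as the highest pladienolide B value (−1.65 ± 0.06, adjusted p = 7.28e-11; same total −2.06). ETAA1, an activator of ATR, was lower (−1.60). RNF168, a ubiquitin ligase at DNA breaks, and WEE1, the kinase that restrains CDK1, were higher by 1.33 and 0.97.

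Genes that need no splicing were described apart. Replication-dependent histone genes lack introns and their main transcripts lack a poly(A) tail. Of 31 tested among 47 listed, 26 were higher and none lower with pladienolide B (median 0.76), and 11 and none with the same total (median 0.35). Most were low in these libraries: H3C1 had values of 16.5, 10.1 and 6.27 with indisulam and 46.2, 21.9 and 44.4 with pladienolide B, and H2BC3 had 14.7, 18.2 and 14.6 with indisulam and 40.1, 36.1 and 78.6 with pladienolide B. In each the drugs did not overlap as deposited (1.71 ± 0.48 and 1.56 ± 0.42, limma adjusted p = 0.00572 and 0.00427). With the same total (1.31 and 1.16) the H3C1 values of the drugs overlapped and those of H2BC3 did not. Outside the histone list, 136 of 241 coding genes with 1 exon were higher (56.4%) and 38 lower (15.8%), against 35.8% and 39.6% of all coding genes. With the same total 94 were higher and 69 lower. A list of 37 genes known as intronless had 18 higher and 10 lower, and 13 and 18 with the same total, but S1PR2 (−2.65) and GPR3 (−1.55), its lowest members, have 2 exons in GENCODE. DNAJC30, a mitochondrial protein encoded by 1 exon, was higher by 1.57.

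Genes of the cell surface and matrix were higher in 30 and lower in 8 of 45, in 20 and 12 with the same total, and in 19 and 10 under quantile normalisation. CCN1, a secreted YAP target, had values of 60897, 55396 and 62971 with indisulam and 256573, 238251 and 238085 with pladienolide B, and ANKRD1, a nuclear YAP target, had 17422, 14031 and 15351 with indisulam and 3449, 2583 and 3024 with pladienolide B. These classic targets of the same coactivator lay on opposite sides, both without overlap (2.03 ± 0.06 and −2.37 ± 0.11, limma adjusted p = 2.62e-11 and 6.05e-10; same total 1.61 and −2.79). TEAD4, a DNA-binding partner of YAP, was lower (−1.41), and ITGA3, an integrin subunit, was higher by 1.03. Receptor kinases and the RAS pathway had 8 higher and 15 lower of 29, and 1 and 23 with the same total. AXL, the receptor kinase typical of mesenchymal lines, was higher by 0.84 (same total 0.42). EPHB4, an ephrin receptor, had values of 6125, 6112 and 5678 with indisulam and 1556, 1439 and 1315 with pladienolide B. The 3 pladienolide B values stood below all 6 others (−2.06 ± 0.07, adjusted p = 4.41e-11; same total −2.48). KSR1, a scaffold of the RAF and MEK kinases, was lower (−2.50). MAPK3, which codes for ERK1, was higher as deposited (0.69) but did not pass with the same total (0.27, adjusted p = 0.0589), and it overlaps a feature of higher mean.

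Glycolysis genes were higher in 14 and lower in 2 of 17 (13 and 3 with the same total), with LDHA, lactate dehydrogenase A, at 0.81 ± 0.07 (limma adjusted p = 2.17e-07). The 11 hypoxia genes went both ways: CA9, a carbonic anhydrase, was higher by 0.90, and KDM3A and EGLN3, an oxygen-dependent demethylase and hydroxylase, were lower (−1.68 and −1.56). KDM3A stood at 2839.5 ± 397 with pladienolide B, 9021 ± 460.1 with indisulam and 4721 ± 317 in DMSO. Of 45 stress genes 21 were higher and 11 lower (12 and 24 with the same total). HSPA5, the chaperone of the endoplasmic reticulum, had values of 42499.8, 42178 and 42121 with indisulam and 97706, 107600.0 and 97326 with pladienolide B. Every pladienolide B library was above all indisulam and DMSO libraries (1.25 ± 0.05, adjusted p = 2.07e-10; same total 0.84). Its co-chaperone DNAJB9 was higher by 1.30. GCLC, which makes the first step of glutathione synthesis, had values of 2081, 2571 and 2601 with indisulam and 286, 383 and 349 with pladienolide B and was the lowest (−2.83 ± 0.12, adjusted p = 2.1e-10; same total −3.25). CEBPG, a partner of ATF4, was lower as well (−1.74). In none of HSPA5, GCLC and CEBPG did the drugs overlap. Cholesterol genes were higher in 10 and lower in 7 of 24, and in 5 and 13 with the same total, the synthesis enzymes HMGCS1 and SQLE being lower (−1.68 and −1.11), SREBF2, the transcription factor, higher by 0.92, and TM7SF2, a sterol reductase, by 0.81. Interferon response genes were higher in 14 and lower in 6 of 26, and in 8 and 9 with the same total. OAS3, an antiviral synthetase, was higher by 0.93, while the factors IRF1 and IRF2 were lower (−1.36 and −1.64).

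Among 14 genes of the elongation kinases and their regulators 10 were lower and 3 higher (12 and 1 with the same total, 7 and 2 under quantile normalisation). Of 19 genes listed with polymerase II, 4 were lower and 11 higher (9 and 6 with the same total). NELFA was the lowest of these 19 and POLR2F the highest. MEPCE, which caps the 7SK RNA that holds P-TEFb inactive, had values of 3430.3, 3441 and 3796 with indisulam and 663, 797 and 818 with pladienolide B, and NELFA, of the pausing factor NELF, had 2045, 1763 and 1991 with indisulam and 429, 516 and 539 with pladienolide B. Neither overlapped (−2.23 ± 0.09 and −1.97 ± 0.10, limma adjusted p = 1.42e-10 and 1.14e-09; same total −2.65 and −2.39). CCNH, the cyclin of the CDK7 kinase, was higher by 1.48 and overlaps RASA1 of higher mean, and POLR2F, a subunit shared by the RNA polymerases, was higher by 1.04. CCNH stood at 2332 ± 201 with pladienolide B, 833 ± 37.2 with indisulam and 2143 ± 83.8 in DMSO.

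The genes lowest with pladienolide B relative to indisulam lay outside these lists. PCF11, a factor of 3′ end cleavage and transcription termination, had values of 1349, 1117 and 1389 with indisulam and 72.2, 76.1 and 148 with pladienolide B, and TRIM68, a ubiquitin ligase, had 1429, 1438 and 1599 with indisulam and 112, 86.4 and 82.4 with pladienolide B. Their pladienolide B values were a small part of the indisulam values (−3.76 ± 0.21 and −3.99 ± 0.12, limma adjusted p = 3.64e-09 and 2.81e-11; same total −4.17 and −4.40), and DMSO stood at 1204 ± 125 and 1039 ± 47.1. ZNF653, a zinc finger gene, had values of 634, 616 and 635 with indisulam and 52.2, 52.9 and 41.9 with pladienolide B. Every pladienolide B library was below all indisulam and DMSO libraries (−3.66 ± 0.13, adjusted p = 6.27e-11; same total −4.07). TGDS, a dehydratase, PDE7B, a phosphodiesterase, NAPB, a SNAP protein, and KLF15, a Krüppel-like factor, were lower too (−3.66, −3.74, −3.66 and −3.58). HOXD3, a homeobox gene, had values of 171, 174 and 154 with indisulam and 3.01, 0 and 7.61 with pladienolide B. The pladienolide B libraries held 9 reads in all, so the size of its fold change is imprecise. FAM72A and FAM72D (−4.07 and −3.70) are near-identical copies inside SRGAP2 and its copy SRGAP2B, between which the counting could divide reads, so neither value is certain by itself. CARD8-AS1 (−4.36) lies over CARD8, with the same limit on telling their reads apart, and NMRAL2P, a pseudogene, was also lower (−3.72).

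Among abundant genes, with a mean of at least 2000, the lowest were as follows. MARCHF7, a RING-type ubiquitin ligase, had values of 5137, 4609.7 and 5158 with indisulam and 640.1, 509 and 627 with pladienolide B, and MAU2, a subunit of the cohesin loader, had 3563, 3547 and 3427 with indisulam and 466, 382 and 435 with pladienolide B. Both were lower in every pladienolide B library than in any indisulam or DMSO library (−3.07 ± 0.09 and −3.04 ± 0.08, limma adjusted p = 2.31e-11 and 1.65e-11; same total −3.49 and −3.46). ZMIZ1, a transcriptional coactivator, had values of 16013, 16107 and 13855 with indisulam and 2353, 2136 and 1854 with pladienolide B, and SMAD3, the signal transducer of TGF-beta, had 3499, 3095 and 2936 with indisulam and 437, 457 and 462 with pladienolide B. These too were without overlap (−2.86 ± 0.09 and −2.81 ± 0.08, limma adjusted p = 3.21e-11 and 2.62e-11; same total −3.28 and −3.22). CLCF1, a cytokine, GTPBP2, a GTPase of ribosome rescue, the feature LRCH4 // ZASP and HDAC9, a histone deacetylase, were lower with log2 fold changes of −2.82, −2.71, −2.71 and −2.65. On the other side, and beside MYC, GADD45B, CCN1 and SPRY2, stood MOCS3, a sulfur carrier activating enzyme, with values of 1008, 981 and 1149 with indisulam and 4300.4, 5050.5 and 4348 with pladienolide B, and CREBZF, a bZIP factor, with 2832, 3015 and 3107 with indisulam and 12289, 13719 and 12951 with pladienolide B. The groups were again apart (2.12 ± 0.09 and 2.12 ± 0.07, limma adjusted p = 2.11e-10 and 6.27e-11; same total 1.71 and 1.70). The feature GSHG0024675, whose deposited gene name is methionyl-tRNA synthetase 2, mitochondrial, was higher by 1.94. This feature and MOCS3 had DMSO and indisulam means under 2000, so both met that minimum only through pladienolide B.

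Few genes could be bounded as alike. The whole 95% interval of the log2 fold change lay within 0.25 of 0 in 562 features (3.34%) as deposited and in 798 (4.74%) with the same total. HSPA8, the constitutive HSC70 chaperone and host of the snoRNAs SNORD14D and SNORD14E, had values of 185014, 175873 and 180264 with indisulam and 194297, 200491 and 179817 with pladienolide B. The libraries of the drugs overlapped as deposited (0.09 ± 0.06, adjusted p = 0.193), but with the same total it was lower with pladienolide B (−0.33, adjusted p = 1.75e-05). EIF1, an initiation factor, and PTBP1, a splicing repressor, likewise had 0.06 and 0.04 as deposited and −0.36 and −0.37 with the same total. TXNRD1, thioredoxin reductase, and TUBB4B, a tubulin, had −0.06 and −0.12, and −0.48 and −0.54. All 5 were lower with the same total and under quantile normalisation. TUBB4B was also called lower with TMM scaling (−0.15, adjusted p = 0.0362), with edgeR on the recovered reads (−0.15, adjusted p = 0.0287), with a replicate block (−0.12, adjusted p = 0.025) and without pladienolide B replicate 2 (−0.18, adjusted p = 0.00409). Within HSPA8, SNORD14E and SNORD14D were higher by 2.30 and 1.62 (same total 1.89 and 1.21).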

How the data were processed

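RNA-seq was measured in 9 MDA-MB-231 libraries, 3 each of DMSO, indisulam and pladienolide B. Libraries were made with a strand-specific mRNA-Seq kit, per the labels' protocols. The deposited signal values are read counts that the authors divided by a size factor per library, per the deposited table, and 100% of them were whole multiples of 1 read within 0.01 read. STAR 2.7.5a, DESeq2 and hg38 are named in the submitters' processing notes. Which tool counted the reads, and with which strand setting, is not given in the sources used here. Totals ranged from 59312100 to 83910831 reads, and intervals and floors cover counting error only.

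Features with a mean of at least 10 were log2-transformed after adding a pseudocount of 1. R 4.3.3 and limma 3.58.1 fitted the 9 libraries together with a trended variance. The contrast was pladienolide B minus indisulam, two-sided, with Benjamini-Hochberg adjustment over all 16846 features, and every adjusted p in the text is from this fit unless another is named. Fold changes on this scale understate those of low genes. A second fit used libraries scaled to the same total. Gene types, exon numbers, transcript lengths and snoRNA sequences came from GENCODE v29. Alternatives were TMM and quantile scaling, other pseudocounts and filters, a replicate block, fewer libraries, and edgeR 4.0.16 and DESeq2 1.42.0 on the recovered reads. The code was tested on simulated data.

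Named features were the 12 highest and 12 lowest log2 fold changes with a symbol, a mean of at least 100, the same call under both scalings and no overlap of the drugs' values; the 8 and 8 likewise with a mean of at least 2000; up to 2 called members of each list per direction; the 5 most abundant features alike; and SF3B1, RBM39, RBM23, DCAF15, MYC, MCL1 and CDKN1A. The 12 highest met the mean of at least 100 only through pladienolide B. Members and lists were chosen with earlier results of these data known. Hosts, families and features named outside this rule were chosen after their values were seen. A few features that meet this rule are not reported here.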

Additional observations from a re-analysis of the deposited data

How the results depend on the processing

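Scaling every library to the same total moved the counts: 3013 features were higher, 676 of at least 2-fold, and 4884 were lower by at least 2-fold. A mean of at least 50 left 848 features at least 2-fold higher, and protein-coding symbols alone left 548. Of the 1401 at least 2-fold higher as deposited, 553 had a mean of 10 to 50 and 550 were protein-coding. Of the 3107 at least 2-fold lower, these numbers were 549 and 2387. With 1 library left out, 5477 to 5796 features were higher and 5625 to 5973 lower, of which 1300 to 1477 and 2990 to 3202 differed at least 2-fold. The ratio of totals was then 1.315 to 1.355 and that of mitochondrial shares 1.379 to 1.405. edgeR called 5615 higher and 6114 lower, and DESeq2 5936 and 5933. The sign turned with the same total in SF3B1 (−0.086), EIF4A3 (−0.17), HSPA8 (−0.33), EIF1 (−0.36) and PTBP1 (−0.37), and with quantile normalisation in the same 5 (−0.048, −0.0051, −0.49, −0.52 and −0.56). The cause was not tested. With the same total MAPK3, SNRPB2, SMG8 and PRPF4B lost their calls, and with quantile normalisation EIF4G1 (0.11), PRPF4B (0.16) and DUSP8 (−0.32). Among SR proteins and relatives, the 7 lower members became 4 without indisulam replicate 2, indisulam replicate 3 or pladienolide B replicate 1. With a replicate block 6139 features were higher and 6260 lower. Deviations of same-numbered libraries correlated at 0.128, 0.0746 and 0.0775, each the best match of its library. Those of differently numbered libraries were all negative (−0.077 to −0.0040). Deviations from a group mean cancel within the group, so positive values at the same numbers make the others negative on balance. The negative values are therefore no separate sign of pairing. The labels do not say whether the numbers mark pairs, and not all 3 matches were above 0.1, so the main fit did not take them as pairs. The 3.34% of features bounded as alike, and snoRNAs near 3 reads, are where depth and 3 libraries per drug limit the comparison.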

Other observations

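Zinc finger genes with a ZNF symbol, most of which code for DNA-binding repressors, were more often lower than higher with pladienolide B against indisulam. Of 242 outside chromosome 19, 28.1% were higher and 56.6% lower, with a median log2 fold change of −0.61 (−1.03 with the same total). Of 230 on chromosome 19, where many lie in clusters, 35.2% were higher and 47.8% lower, with a median of −0.30 (−0.71 with the same total). The difference between these groups was not tested. Over all coding genes the shares were 35.8% and 39.6%, with a median of −0.04 (−0.45 with the same total).

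Non-coding features named for a nearby gene are given beside all features, of which 34.7% were higher and 35.6% lower as deposited. Of 416 antisense features 29.6% were higher and 15.9% lower (median 0.27), and of 87 divergent transcripts 28.7% were higher and 12.6% lower (median 0.35). With the same total 29.1% of antisense features and 27.6% of divergent transcripts were lower, and 16.3% and 18.4% higher. Reads of such features and of the genes they overlap cannot be told apart without the strand setting of the counting.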
